A study of Sus scrofa with 12 samples.

Results

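The comparison described here adds platelet-derived growth factor BB (PDGF-BB) to coronary artery smooth muscle cells that also received the protein S100A4. It sets 3 libraries of cells given both proteins against 3 libraries of cells given S100A4 alone, matched by replicate number. These are 6 of the study's 12 RNA sequencing libraries. Of 21153 genes in the count table, 12051 had at least 10 counts in 3 or more of the 6 libraries and were tested, and the other 9102 were left out. The question is what PDGF-BB changes in cells that are exposed to S100A4 at the same time.

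All cells were primary cultures from pig (Sus scrofa) coronary artery, labelled as differentiated and contractile, and came from 3 animals according to the series' design text. They were between passages 6 and 11, grew for 24 h in medium with 10% fetal calf serum, and were then treated for 4 h. S100A4 was given at 1 µg/ml in both groups compared, so that protein, the serum and the culture conditions are shared by them, and PDGF-BB was given at 30 ng/ml in only one of them. The study's other groups were control cells with neither protein and cells with PDGF-BB alone, at the same dose and time. The labels do not say which library came from which animal, so the p-values speak only for the spread among the libraries at hand. All values are from cultured cells kept in serum, and bulk RNA cannot tell more cells of a type from more RNA per cell.

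PDGF-BB binds the PDGF receptors, tyrosine kinases that recruit adaptor proteins and feed the RAS-ERK cascade, phosphoinositide 3-kinase with AKT, and phospholipase C. ERK signalling switches on immediate early transcription factors and then the inhibitors that limit it, while AKT keeps FOXO transcription factors out of the nucleus. In arterial smooth muscle PDGF-BB is best known as a mitogen and attractant that moves cells away from the contractile state. S100A4 is a small calcium-binding protein that can also act outside cells, where the receptor RAGE (gene AGER) and the Toll-like receptor TLR4 are among its reported receptors.

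The 6 libraries held 22230821 to 26097065 counts, so that 1 CPM (the count scaled to the size of its library) stood for at least 22.5 counts. The replicate 2 libraries stood apart: they lay on the negative side of the first principal component, while the other 4 lay on the positive side of this axis, with 54.1% of the variance. Cells with both proteins parted from cells with S100A4 alone on the next component (25.7%). The summed level of 8 smooth muscle markers was 9750 to 9930 CPM in replicate 2 and 20700 to 22100 CPM in the others, and that of 8 fibroblast markers 1090 to 1190 CPM against 313 to 507 CPM. Both sums differed far less between the groups than between replicate numbers. ACTA2 made up most of the first sum and LUM most of the second, so they say little of the other members. Among the smooth muscle markers 2 rose and 4 fell. Of the fibroblast markers TCF21 (0.85 ± 0.09) and DPT (0.48 ± 0.09) rose, and LUM (−0.26 ± 0.06) and FAP (−0.21 ± 0.05) fell. TCF21 was not highest in replicate 2. The leukocyte markers PTPRC, CD163, CD3E, CD3D and CD2 were at 0 in all 6 libraries. The other members of these lists were detected at low levels, CD14 at 138 to 203 counts, CD247 at 103 to 249, CSF1R at 19 to 31, CD68 at 15 to 26 and AIF1 at 3 to 10. The macrophage markers summed to 8.59 to 10.7 CPM with S100A4 and 7.62 to 9.30 CPM with both proteins, and the T cell markers to 4.81 to 9.62 and 4.43 to 8.94 CPM. The 5 pericyte markers summed to 312 to 1500 CPM with S100A4 and 389 to 1800 CPM with both proteins. The 6 endothelial markers found summed to 59.5 to 150 CPM and 133 to 208 CPM, and the transcription factor ERG was the one of them that rose (1.17 ± 0.11). In both groups replicate 2 had the lowest pericyte sum (312 and 389 CPM) and the highest endothelial sum (150 and 208 CPM). CSPG4 (0.67 ± 0.07) and NOTCH3 (−0.28 ± 0.06) made up most of the pericyte sum and moved in opposite directions. The pericyte marker RGS5 was instead highest in replicate 2, at 0.978, 6.41 and 0.267 CPM with S100A4 and 1.22, 6.16 and 0.689 CPM with both. The part of other cell types in the results below was not tested. All tests kept the replicate number as a block, because the comparison was set up in pairs of libraries with the same number.

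PDGF-BB changed 5915 of the 12051 genes (49.1%) in S100A4-treated cells, 3088 higher (25.6%) and 2827 lower (23.5%), at an adjusted p under 0.05 by edgeR's quasi-likelihood test. Most of these changes were small. Their median size was 0.36 on the log2 scale, and 2569 of them were below 1.25-fold. Changes of more than 2-fold numbered 417 (3.46%), of which 252 were higher (2.09%) and 165 lower (1.37%). Beyond 4-fold there were 38 higher and 14 lower, and beyond 8-fold 13 higher and 2 lower. The direction was the same in all 3 replicate pairs for 5849 of the 5915. Since the test compares libraries within a replicate number and so favours genes whose pairs agree, nothing is read from that count. Without the block 1888 genes were called, all of them among the 5915 and in the same direction, 1186 higher and 702 lower. With upper-quartile scaling 6102 genes passed, and the share of higher ones among them was 41.5%, against 52.2% in the TMM fit, so the balance between higher and lower calls depended on the scaling.

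Below, values per library are CPM in the order of replicates 1, 2 and 3, changes are log2 fold changes ± SE of cells with both proteins against S100A4 alone, and n is 3 libraries per group throughout. A gene is said to rise or fall only where its adjusted p was under 0.05. Gene lists are described by counts and medians, and nothing particular to a list was tested. The background for every list is the 25.6% of all tested genes that rose, the 23.5% that fell and their median change of −0.01.

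The largest rises with a symbol and a mean of at least 1 log2 CPM included signalling inhibitors, secreted factors and adhesion genes. RGS4 (ENSSSCG00000006335, chromosome 4, 87383336 to 87390478 on Sscrofa11.1), which shortens G-protein signals, was at 3.82, 6.88 and 4.47 CPM with S100A4 and at 61.4, 69.0 and 76.1 CPM with both proteins. All 3 libraries with PDGF-BB lay far above every library without it, and the rise was 13.5-fold (3.76 ± 0.13, adjusted p = 6.87e-10). DUSP5, a nuclear phosphatase that inactivates ERK, went from 2.58, 7.49 and 5.35 CPM to 48.3, 54.7 and 60.1 CPM (3.45 ± 0.19, adjusted p = 1.5e-08). ERRFI1, an inhibitor of the EGF receptor, went from 19.0, 23.2 and 26.7 CPM to 227, 116 and 248 CPM (3.05 ± 0.16). In both genes the groups did not overlap, and replicate 2 rose least.

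ITGA2 (chromosome 16, 32336240 to 32440311), the α2 subunit of a collagen-binding integrin, rose from 0.889, 1.51 and 1.83 CPM to 10.0, 13.6 and 14.1 CPM (3.16 ± 0.13, adjusted p = 2.64e-09). It was near the detection floor without PDGF-BB and well above it in all 3 libraries with it. SEMA7A, a membrane-anchored semaphorin, rose from 3.69, 14.2 and 5.0 CPM to 48.0, 85.6 and 47.9 CPM (3.06 ± 0.16). HAS2, which makes hyaluronan, rose from 8.23, 21.4 and 1.87 CPM to 56.0, 146 and 36.5 CPM (3.03 ± 0.20), although its level differed more than 10-fold between replicates 2 and 3 of S100A4-treated cells. The transcription factor EGR2 rose from 1.29, 3.21 and 1.53 CPM to 17.0, 14 and 11.8 CPM (2.87 ± 0.28).

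IL11, a cytokine of the interleukin-6 family, was at 11.4, 89.6 and 11.9 CPM with S100A4 and at 198, 496 and 169 CPM with both (3.31 ± 0.21, adjusted p = 5.39e-08). Replicate 2 was highest in each group. Its lowest library with both proteins still exceeded the highest one without PDGF-BB. SERPINB2, an inhibitor of plasminogen activators, was the one gene of the 15 largest rises whose groups overlapped, because replicate 2 held 102 CPM before and 294 CPM after PDGF-BB while replicates 1 and 3 went from 2.54 and 1.57 CPM to 59.9 and 37.2 CPM (2.65 ± 0.37, adjusted p = 5.36e-05). Without the block the adjusted p was 0.0858 for IL11, 0.0866 for HAS2 and 0.538 for SERPINB2, so these 3 calls rest on comparing libraries within a replicate number. The other 6 were EVA1A (2.58 ± 0.13), the lysophospholipid transporter MFSD2A (2.57 ± 0.14), the organic anion transporter SLCO4A1 (2.41 ± 0.24), the cytokine LIF (2.27 ± 0.13), the neuropeptide precursor VGF (2.25 ± 0.17) and the adaptor SH2D5 (2.23 ± 0.15).

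The largest falls included a hormone receptor, transcription factors, FOXO targets and a metal transporter. GHSR (ENSSSCG00000020906, chromosome 13, 110981465 to 111006149), the ghrelin receptor, was at 9.16, 5.87 and 11.8 CPM with S100A4 and at 0.652, 0.517 and 1.29 CPM with both proteins. Every library with PDGF-BB was below every library without it, and the fall was 10.8-fold (−3.44 ± 0.19, adjusted p = 1.95e-08). ATOH8, a helix-loop-helix transcription factor, went from 6.67, 3.52 and 5.12 CPM to 0.826, 0.556 and 1.29 CPM (5.67-fold lower, adjusted p = 3.8e-06). SLC40A1, the iron exporter ferroportin, went from 211, 223 and 139 CPM to 35.4, 75.7 and 27.2 CPM (−2.12 ± 0.15). CEBPD, a transcription factor of acute-phase and inflammatory responses, went from 123, 173 and 152 CPM to 41.7, 60.0 and 45.9 CPM (−1.62 ± 0.17).

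Of the 15 largest falls, 14 had groups without overlap, as had 3695 (30.7%) of all tested genes. Since these genes were taken for the size of their change, nothing is read from that count. THPO, thrombopoietin, was the exception, at 6.67, 2.09 and 7.60 CPM before and 1.43, 0.596 and 2.67 CPM after PDGF-BB (−1.79 ± 0.18, adjusted p = 0.107 without the block). The others were BMF, FBXO32, KLHL24 and CCNG2, described with the FOXO targets, and LURAP1L (−2.21 ± 0.14), TMEM140 (−2.08 ± 0.19), the steroid reductase AKR1D1 (−1.88 ± 0.17), the small GTPases RND1 (−1.79 ± 0.10) and RASL11B (−1.65 ± 0.16) and the innate immune receptor TLR2 (−1.67 ± 0.17).

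**Figure D1:**
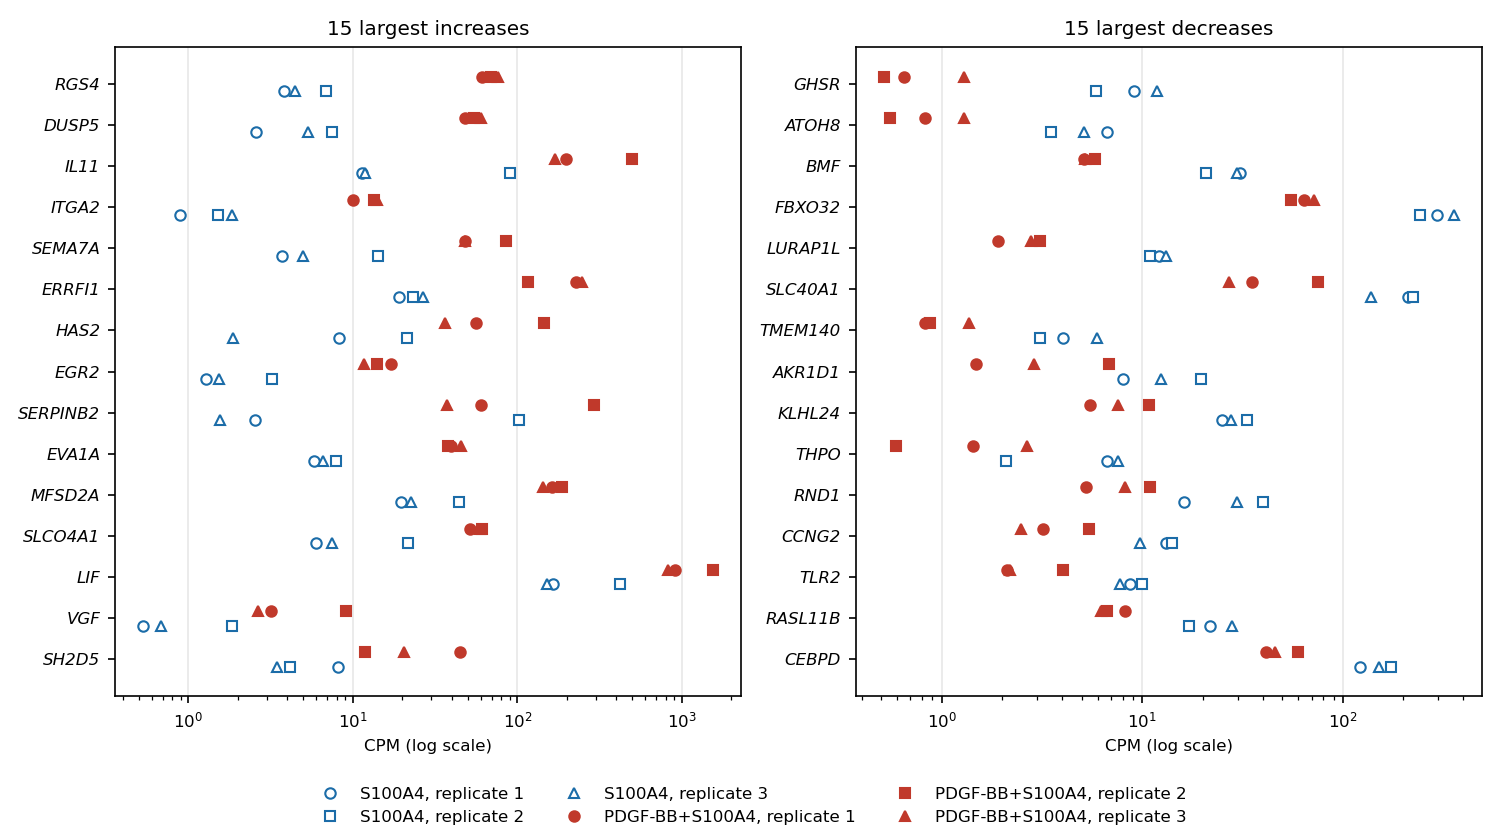
Level in CPM on a log axis of the 15 genes with the largest rises and the 15 with the largest falls, 1 point per library; open blue points are S100A4 alone, filled red points are PDGF-BB+S100A4, and the marker shape gives the replicate number. In 14 of 15 genes on each side the red and blue points do not overlap, the exceptions being SERPINB2 and THPO.

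In 12 of the 15 largest rises and 11 of the 15 largest falls, the replicate 2 pair gave the smallest change. The same order appeared in genes chosen on libraries outside the comparison. Among 282 genes more than 2-fold higher with PDGF-BB against control, the median log2 ratio of both proteins over S100A4 was 1.33 in pair 1, 0.98 in pair 2 and 1.26 in pair 3. Pair 2 was the smallest in 204 of them (72.3%). Among 187 genes more than 2-fold lower with PDGF-BB against control, the medians were −1.15, −0.93 and −1.12, with pair 2 smallest in 109 (58.3%). The replicate 2 libraries also had the lower smooth muscle and pericyte and the higher fibroblast and endothelial marker sums. The part of this in the smaller response was not tested.

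The feedback inhibitors and targets of ERK signalling rose in 17 of 21 tested members and fell in none, with a median of 0.96. SPRED1, an inhibitor of RAS-ERK signalling, went from 36.6, 42.2 and 32.5 CPM to 74.5, 85.9 and 76.9 CPM (1.10 ± 0.06, adjusted p = 7.82e-09). CCND1, cyclin D1, went from 186, 209 and 201 CPM to 331, 363 and 329 CPM (0.78 ± 0.05). Both genes rose to nearly the same extent in the 3 pairs. Further members, named here after their values were seen, were SPRY2, which blocks receptor signalling to RAS (1.71 ± 0.14), and the cytoplasmic ERK phosphatase DUSP6 (1.60 ± 0.16). ETV1, ETV4, SPRED2 and DUSP8 were the 4 members that did not pass.

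Immediate early transcription factors rose in 16 of 22 members and fell in 3, with a median of 0.72. MYC, a driver of growth genes, went from 75.7, 69.0 and 66.0 CPM to 173, 122 and 167 CPM (1.12 ± 0.08, adjusted p = 1.23e-07). The orphan receptor NR4A3 went from 4.27, 4.40 and 7.52 CPM to 20.1, 14.8 and 24.7 CPM (1.89 ± 0.13), and the small MAF factor MAFF from 46.4, 61.9 and 74.4 CPM to 117, 147 and 152 CPM (2.29-fold). All 3 rose in every pair without overlap. The AP-1 subunit FOSL2 moved the other way, from 666, 516 and 555 CPM to 361, 322 and 352 CPM (−0.74 ± 0.05, adjusted p = 1.1e-07). The other members that fell, KLF4 (−0.45 ± 0.06) and ATF3 (−0.69 ± 0.10), and FOS, which did not pass (0.06 ± 0.12), were named after their values were seen.

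FOXO factors and their target genes fell in 17 of 23 members and rose in 1, with a median of −0.73. FBXO32 (chromosome 4, 15895875 to 15925929), the muscle ubiquitin ligase atrogin-1, went from 295, 242 and 357 CPM to 64.1, 55.2 and 71.8 CPM (−2.22 ± 0.08, adjusted p = 9.65e-10). BMF, a BH3-only promoter of apoptosis, went from 30.6, 20.9 and 29.8 CPM to 5.13, 5.84 and 5.21 CPM (−2.31 ± 0.11), and KLHL24 from 24.9, 33.3 and 27.8 CPM to 5.48, 10.8 and 7.57 CPM (−1.86 ± 0.10). In these 3 genes the levels with PDGF-BB were well below every library without it. CCNG2, an atypical cyclin of resting cells, fell from 13.2, 14.1 and 9.81 CPM to 3.22, 5.41 and 2.50 CPM (−1.73 ± 0.16). PIK3IP1, an inhibitor of phosphoinositide 3-kinase, went from 32.5, 29.2 and 43.3 CPM to 14.3, 10.6 and 17.0 CPM (−1.33 ± 0.10). CDKN1B, the cyclin-dependent kinase inhibitor p27, went from 52.6, 43.1 and 47.0 CPM to 21.9, 23.9 and 17.5 CPM (−1.17 ± 0.10). The genes of the factors fell as well, FOXO3 by 0.75, FOXO4 by 0.64 and FOXO1 by 0.19, and the member that rose was CITED2 (0.29 ± 0.06). These 4 and the 5 members that did not pass, SESN3, IRS1, TXNIP, ERBB3 and GADD45A, were named after their values were seen.

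**Figure D2:**
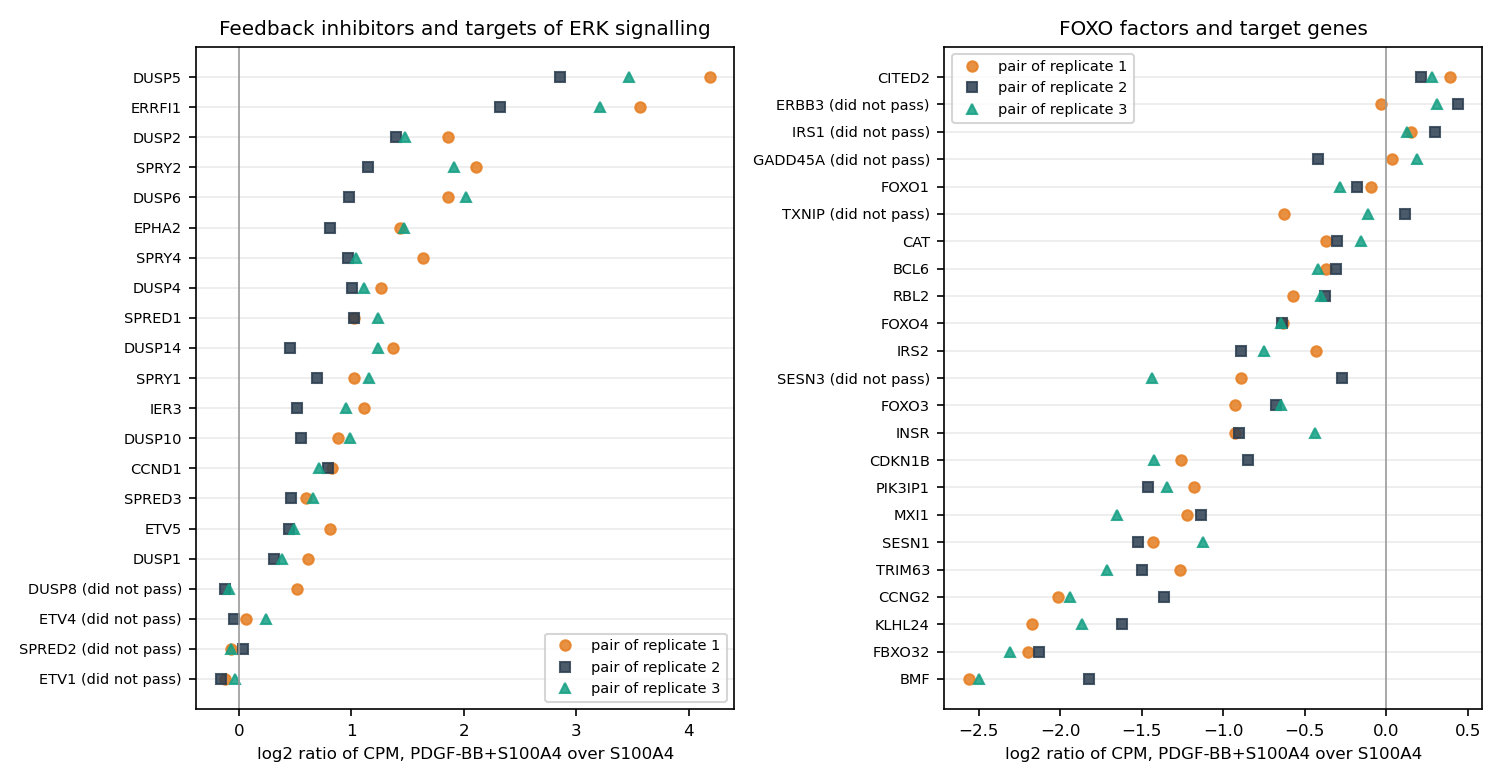
Log2 ratio of CPM, PDGF-BB+S100A4 over S100A4, in each of the 3 replicate pairs for the members of the ERK feedback list (left) and the FOXO list (right), ordered by their fitted change, with genes that did not pass marked in the axis label. The 17 ERK members that rose are right of 0 in every pair, and the dark squares of replicate 2 lie closest to 0 in most of the largest changes.

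Ribosome biogenesis genes rose in 36 of 38 members and fell in none, with a median of 0.67. The RNA helicase DDX21 went from 143, 179 and 140 CPM to 322, 321 and 317 CPM (1.06 ± 0.06, adjusted p = 2.53e-08). The ribosomal RNA methyltransferase NOP2 went from 63.6, 80.2 and 65.9 CPM to 151, 152 and 155 CPM (1.13 ± 0.07). With PDGF-BB the 3 libraries of these genes lay closer together than without it. BYSL, needed for the small subunit (1.05 ± 0.06), and PES1, needed for the large one (0.76 ± 0.04), rose as well, and NOP56 and LTV1, named after their values were seen, were the members that did not pass. Only 5 members changed more than 2-fold. The count was 33 without the block, and 36 with either other scaling.

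Growth factors and cytokines rose in 14 of 22 members and fell in 4, with a median of 0.74. The EGF receptor ligand HBEGF went from 9.34, 17.1 and 11.2 CPM to 42.5, 66.3 and 50.0 CPM (2.10 ± 0.12, adjusted p = 1.63e-08). Its relative AREG went from 37.7, 172 and 35.0 CPM to 181, 528 and 190 CPM (2.08 ± 0.12). GDF15, a stress-induced member of the TGF-beta family, went from 32.8, 56.9 and 59.1 CPM to 84.4, 107 and 130 CPM (1.12 ± 0.07). All libraries with PDGF-BB were above those without it in these genes, narrowly for AREG, whose adjusted p without the block was 0.189. LIF reached the highest level of the named cytokines, from 164, 418 and 151 CPM to 912, 1544 and 820 CPM. VEGFA, the main angiogenic factor, rose by 1.73 ± 0.14, and PTHLH, BDNF, FGF2 and BMP6 fell. VEGFA, BDNF, FGF2 and BMP6 were named after their values were seen. Without the block 5 members rose and 1 fell.

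Plasminogen activators, metalloproteinases and their inhibitors rose in 12 of 20 members and fell in 3, with a median of 0.46. Urokinase PLAU, which activates plasmin, went from 356, 381 and 420 CPM to 1527, 1469 and 1648 CPM (2.01 ± 0.09, adjusted p = 3.17e-09). Its receptor PLAUR went from 153, 174 and 165 CPM to 462, 393 and 451 CPM (2.65-fold), and the protease inhibitor SERPINE2 from 384, 519 and 405 CPM to 1018, 1173 and 1019 CPM (1.30 ± 0.04). The groups were far apart and the replicates close in all 3. The metalloproteinase ADAMTS9 fell, from 64.6, 52.3 and 72.0 CPM to 38.5, 32.4 and 43.1 CPM (−0.73 ± 0.05). Without the block 5 members rose and 3 fell, and with upper-quartile scaling 10 rose and 5 fell.

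The list of NF-kB factors, inhibitors and inflammatory targets split, with 14 of 30 members higher, 10 lower and a median of 0.13. NFKBIZ, a nuclear co-regulator of NF-kB, fell from 118, 198 and 152 CPM to 59.2, 93.6 and 70.2 CPM (−1.06 ± 0.07, adjusted p = 9.72e-08). The mitochondrial superoxide dismutase SOD2 fell from 508, 817 and 563 CPM to 272, 480 and 339 CPM (−0.79 ± 0.09), and TLR2 from 8.72, 9.96 and 7.75 CPM to 2.13, 4.01 and 2.19 CPM. The subunit NFKB1 rose from 112, 153 and 126 CPM to 165, 205 and 195 CPM (0.54 ± 0.05, adjusted p = 6.11e-07). Each of these changes left no overlap between the groups. The neutrophil chemokine CXCL8 (1.67 ± 0.27) and prostaglandin synthase PTGS2 (1.61 ± 0.19) rose, VCAM1 (−0.43 ± 0.14) and the inhibitor NFKBIA (−0.37 ± 0.07) fell, and the subunits RELA (−0.03 ± 0.04) and NFKB2 (0.09 ± 0.04) did not pass. These 6 were named after their values were seen. With PDGF-BB against control, 17 members rose and 6 fell, with a median of 0.44. The test of the difference between both PDGF-BB effects, described below, passed in only 1 of the 30 members. Without the block the list had 3 higher and 3 lower with S100A4.

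Interferon-response genes fell in 10 of 19 members and rose in none, with a median of −0.32. The RNA sensor IFIH1 went from 18.8, 12.7 and 19.7 CPM to 8.30, 6.92 and 11.7 CPM (−0.93 ± 0.11, adjusted p = 9.63e-06), and the transcription factor IRF1 from 49.9, 54.6 and 53.6 CPM to 27.9, 37.1 and 30.0 CPM (−0.74 ± 0.10). USP18, which removes the modifier ISG15, fell within every pair but overlapped between groups, from 26.2, 7.14 and 30.4 CPM to 14.8, 4.05 and 20.5 CPM (−0.72 ± 0.09). Without the block 1 member of this list was called.

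The proliferation lists did not move together. G1/S and replication genes had 6 of 24 members higher and 5 lower, with a median of 0.05. Cyclin D2, CCND2, rose from 69.2, 48.4 and 69.8 CPM to 107, 81.3 and 104 CPM (0.65 ± 0.05), like cyclin D1, and the kinase inhibitor CDKN2B fell from 12.9, 12.7 and 15.7 CPM to 7.08, 8.11 and 7.62 CPM (−0.85 ± 0.09). The replicative helicase genes MCM2 (0.02 ± 0.06) and MCM7 (−0.02 ± 0.06), named after their values were seen, did not pass. G2/M genes fell in 10 of 15 members and rose in none, with a median of −0.33. The mitotic kinesin KIF11 went from 62.8, 74.6 and 18.6 CPM to 35.2, 55.3 and 13.7 CPM (−0.58 ± 0.07), and the kinetochore gene CENPF from 90.2, 122 and 18.9 CPM to 61.5, 93.9 and 14.9 CPM (−0.44 ± 0.07). Replicate 3 was far below the others in both groups, so the fall was visible only within pairs. Without the block 0 G2/M members were called, and without replicate 1 of all groups 4 fell. The G1/S list had 2 higher and 2 lower without the block, 4 and 3 without replicate 1 of all groups or S100A4 replicate 1, and 7 and 3 without PDGF-BB+S100A4 replicate 2.

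Contractile genes fell in 11 of 22 members and rose in 7, with a median of −0.13. ACTA2, smooth muscle α-actin, was at 14260, 6551 and 14950 CPM with S100A4 and at 15990, 6664 and 15010 CPM with both proteins, and its change did not pass (0.07 ± 0.05, adjusted p = 0.285). SMTN, smoothelin, fell without overlap from 342, 299 and 366 CPM to 279, 219 and 276 CPM (−0.38 ± 0.05, adjusted p = 3.68e-05). MYH11, smooth muscle myosin, fell within each pair, from 1312, 380 and 1625 CPM to 1093, 316 and 1296 CPM (−0.28 ± 0.07, adjusted p = 0.005). CNN1, calponin, rose slightly, from 952, 406 and 1000 CPM to 1106, 465 and 1046 CPM (0.16 ± 0.05, adjusted p = 0.0193), a call lost in 8 of 24 alternative settings. The identifier that carries the symbol TAGLN held only 3.21 to 7.13 CPM, and whether it covers the whole gene is not known. Its call (adjusted p = 0.0325) was lost in 10 of 24 settings. The actin-binding SYNPO2 (−0.71 ± 0.07) and the SRF co-activator MRTFB (−0.51 ± 0.06) fell and vinculin, VCL (0.42 ± 0.05), rose. Upper-quartile scaling gave 3 higher and 12 lower contractile genes, and without the block 0 were higher and 1 lower. Leaving out libraries also moved the count, to 3 higher and 10 lower without replicate 1 of all groups or S100A4 replicate 1, 3 and 12 without PDGF-BB+S100A4 replicate 1, and 4 and 10 without S100A4 replicate 2.

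Integrin subunits rose in 8 of 17 members and fell in 3. After ITGA2, the next largest rise was in ITGB3, a subunit of a vitronectin receptor, from 74.9, 236 and 97.3 CPM to 257, 502 and 327 CPM (1.54 ± 0.12). The fibronectin receptor subunit ITGA5 went from 1769, 1066 and 1985 CPM to 3383, 1843 and 3360 CPM (0.83 ± 0.04), overlapping between groups because replicate 2 was low in both. ITGA3 (0.77 ± 0.05) rose as well. Without the block 3 integrin genes rose and 0 fell, without replicate 1 of all groups 5 rose and 2 fell, and 7 rose and 5 fell with upper-quartile scaling or without PDGF-BB replicate 3. Among matrix genes 10 of 30 rose and 9 fell, with a median of −0.01. Osteopontin, SPP1, rose from 112, 153 and 152 CPM to 289, 273 and 423 CPM (1.23 ± 0.11), tenascin C, TNC, by 0.67 ± 0.07 and COL6A3 by 0.37 ± 0.04. Upper-quartile scaling gave 7 higher and 14 lower matrix genes, the fit without the block 1 and 1, and a test against a fold of 1.2 gave 7 and 0.

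Readouts of TGF-beta, BMP and YAP signalling rose in 8 of 21 members and fell in 8. The BMP-induced inhibitor SMAD6 went from 43.6, 29.7 and 36.1 CPM to 13.3, 10.6 and 11.8 CPM (−1.61 ± 0.09, adjusted p = 2.22e-08), and ID2, another BMP target, from 68.2, 43.7 and 72.7 CPM to 33.1, 22.3 and 40.6 CPM (−0.95 ± 0.08). Both fell without overlap, as did ATOH8. The SMAD co-repressor TGIF1 rose by 0.74 ± 0.07 and the ligand TGFB3 by 0.79 ± 0.07. Among G-protein-coupled receptors and RGS proteins, 6 of 21 rose and 5 fell. The sphingosine 1-phosphate receptor S1PR2 went from 39.3, 31.3 and 38.7 CPM to 108, 67.6 and 96.3 CPM (1.30 ± 0.06, adjusted p = 4.24e-09), and the nucleotide receptor P2RY2 rose by 1.27 ± 0.11. The endothelin receptor EDNRA (−1.41 ± 0.14) and the angiotensin receptor AGTR1 (−0.59 ± 0.10) fell, and were named after their values were seen. Without the block the TGF-beta, BMP and YAP list had 2 higher and 4 lower and the receptor list 2 and 1, and the stricter filter gave 6 and 3 for the receptor list.

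The metabolic lists held smaller changes with a few large ones. Among 24 glycolysis and hypoxia genes 13 rose and 5 fell. EGLN3, a prolyl hydroxylase induced by hypoxia factors, went from 26.4, 34.6 and 43.3 CPM to 150, 116 and 204 CPM (2.15 ± 0.12, adjusted p = 2.38e-08), while LDHA (0.38 ± 0.04), GAPDH (0.33 ± 0.04) and PGAM1 (0.28 ± 0.04) rose by less. Sterol and fatty acid synthesis genes rose in 12 of 24 and fell in 1. Fatty acid synthase FASN went from 271, 414 and 317 CPM to 585, 676 and 595 CPM (0.91 ± 0.06). The member that fell was INSIG1 (−0.59 ± 0.06), which holds back sterol synthesis. With upper-quartile scaling 8 sterol genes rose and 2 fell, and without the block 3 rose and 1 fell. The glycolysis list had 3 higher and 2 lower without the block, and 9 and 3 without replicate 3 of all groups. Of 13 nutrient transporters 5 rose, led by the phosphate carrier SLC20A1 (1.53 ± 0.06), and 3 fell, among them SLC1A4 (−0.67 ± 0.08). Unfolded protein and amino acid stress genes had 6 of 18 members higher, the chaperones HSPA5 (0.68 ± 0.05), MANF (0.71 ± 0.07), HSP90B1 (0.29 ± 0.04) and CALR (0.28 ± 0.04) among them, and 7 lower. Of 16 clock genes 3 rose, among them CRY1 (0.37 ± 0.06) and CRY2 (0.39 ± 0.06), and 5 fell, among them NR1D2 (−0.89 ± 0.08) and NPAS2 (−0.35 ± 0.05). Without the block 2 transporters rose and 1 fell, 5 stress genes rose and 0 fell, and 1 clock gene rose and 1 fell. Stress genes had 6 higher and 4 lower without replicate 1 of all groups, and clock genes 3 and 3 without replicate 3 of all groups, PDGF-BB+S100A4 replicate 3 or S100A4 replicate 1.

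**Figure D3:**
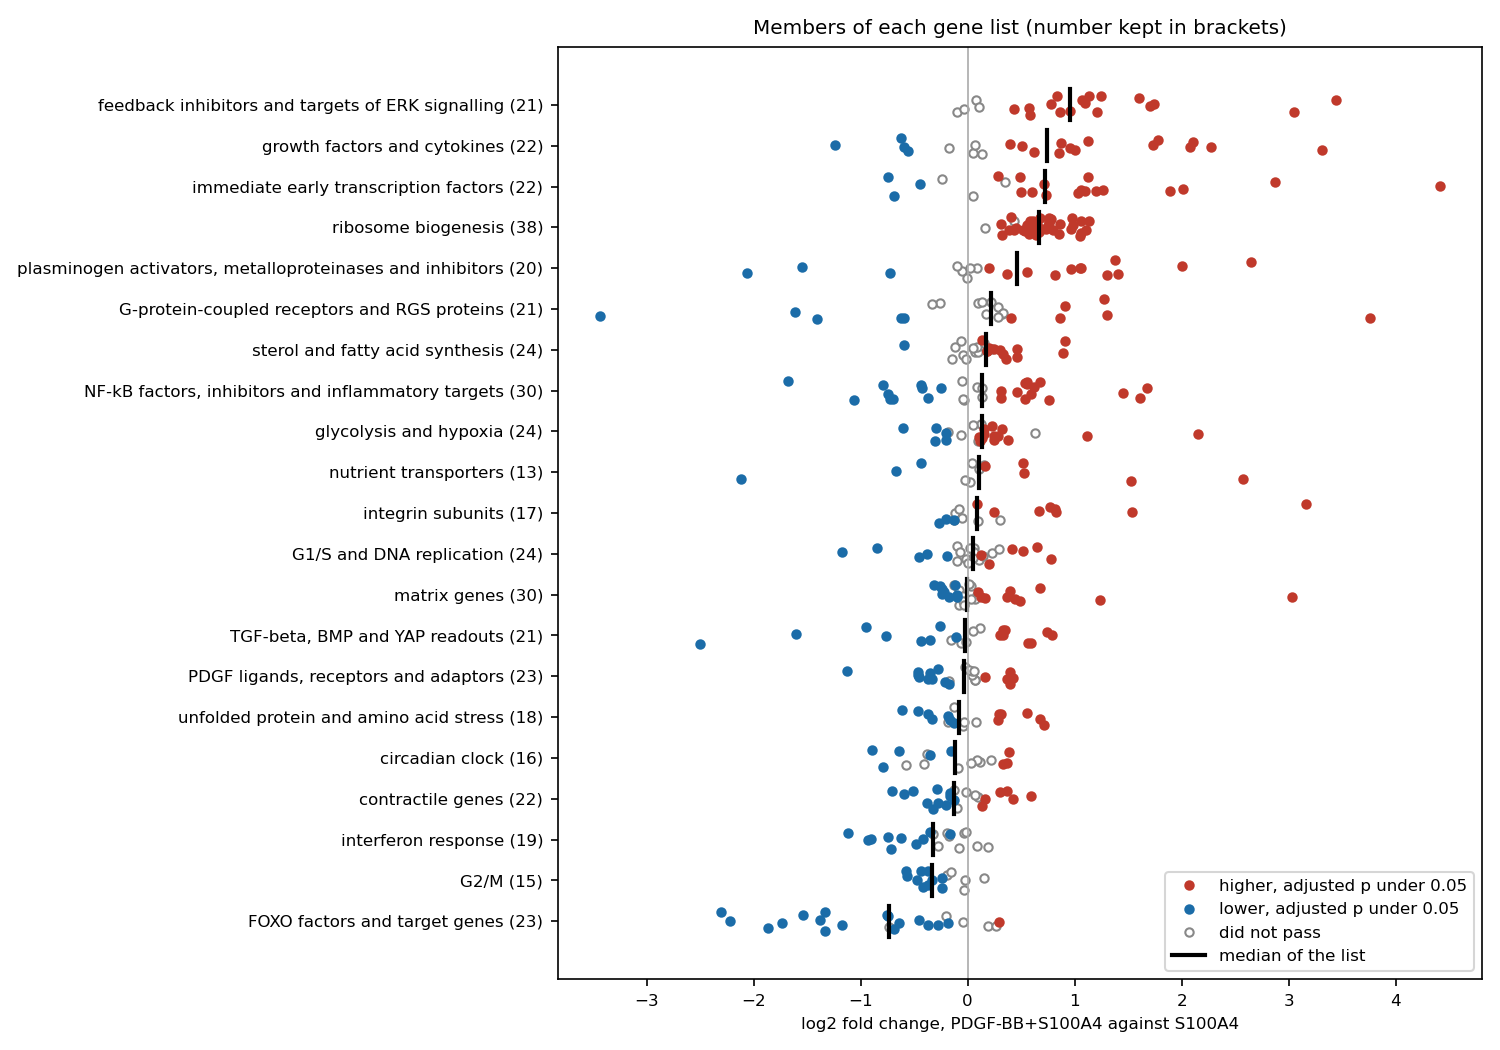
Log2 fold change of every tested member of the gene lists, PDGF-BB+S100A4 against S100A4, 1 point per gene; red points rose, blue points fell, open points did not pass, and black bars are list medians. The ERK feedback, immediate early and ribosome biogenesis lists lie mostly right of 0 (medians 0.96, 0.72 and 0.67), the FOXO list mostly left of it (median −0.73), and the matrix list around 0 (median −0.01).

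Of 23 PDGF ligands, receptors and adaptors 5 rose and 10 fell, with a median of −0.03. Without the block 3 rose and 4 fell, and without replicate 1 of all groups 3 rose and 9 fell. The receptor PDGFRB was at 826, 390 and 857 CPM with S100A4 and at 832, 388 and 808 CPM with both (−0.03 ± 0.04, adjusted p = 0.554). PDGFRA was at 37.9, 164 and 12.5 CPM and at 43.9, 144 and 14.6 CPM (0.04 ± 0.09, adjusted p = 0.731). Both receptors followed the replicate number more than the treatment. The adaptor GAB1 was the one member that changed more than 2-fold, from 23.8, 25 and 23.1 CPM to 10.1, 13.2 and 9.77 CPM (−1.13 ± 0.08, adjusted p = 9.67e-08). The adaptor SHC1 (0.40 ± 0.04) and the RAS inactivator RASA1 (0.40 ± 0.05) rose, and phospholipase C gamma, PLCG1 (−0.37 ± 0.05), fell. The mRNA of S100A4 itself did not pass (−0.07 ± 0.07, adjusted p = 0.369). Its reported receptor AGER had 2 to 4 counts in each library, too few to test, and TLR4 was low and overlapped between groups, at 3.82, 17.8 and 4.47 CPM against 0.739, 12.2 and 2.41 CPM (−0.86 ± 0.27, adjusted p = 0.0156).

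Most of the called genes were also called when PDGF-BB was given without S100A4. That comparison, PDGF-BB against control, uses the other 6 libraries, so the comparisons share replicate numbers and an estimate of the spread but no library. It called 6036 of the same 12051 genes (50.1%), 3001 higher (24.9%) and 3035 lower (25.2%). Both comparisons called 4660 genes in the same direction, which is 78.8% of the calls with S100A4 and 77.2% of those without it, and 10 in opposite directions. Across the genes, which are not independent replicates, the log2 changes correlated at Pearson r = 0.873 and Spearman rho = 0.838. All 15 of the largest rises were called higher without S100A4, and 13 of the 15 largest falls lower. RGS4 changed by 3.76 ± 0.13 with and 3.76 ± 0.13 without S100A4.

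The exceptions were RND1 and AKR1D1, whose levels were low in cells without S100A4. RND1 was at 1.01, 1.26 and 0.850 CPM in control and at 0.527, 1.04 and 0.677 CPM with PDGF-BB alone (adjusted p = 0.128), against 16.1, 40.1 and 29.6 CPM with S100A4 and 5.26, 11.0 and 8.26 CPM with both. AKR1D1 was at 0.563, 0.951 and 0.519 CPM in control and at 0.446, 0.489 and 0.613 CPM with PDGF-BB alone (adjusted p = 0.431). With S100A4 it was at 8.0, 19.6 and 12.4 CPM and fell to 1.48, 6.84 and 2.88 CPM. Both genes thus fell from levels that were far higher in the S100A4-treated libraries than in control, and the difference between the PDGF-BB effects did not pass for RND1 (−1.31 ± 0.28, adjusted p = 0.107) or AKR1D1 (−1.48 ± 0.46, adjusted p = 0.32).

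**Figure D4:**
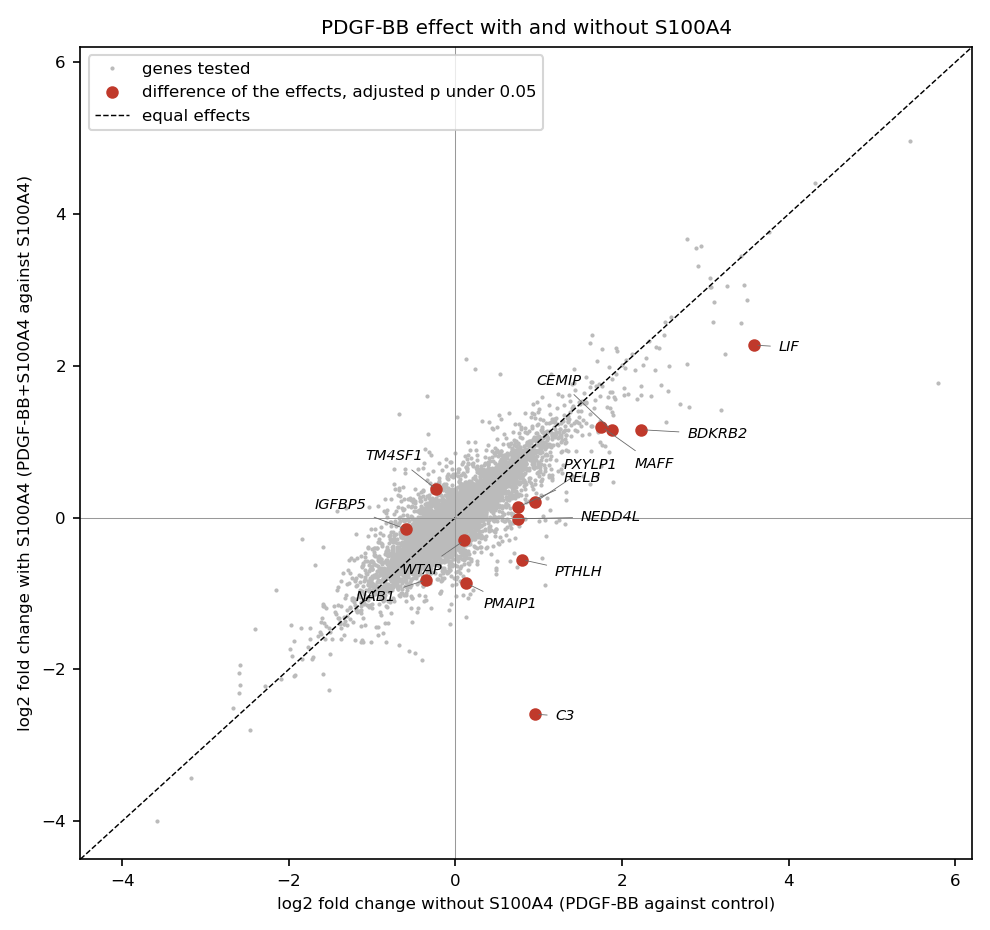
Log2 fold change with PDGF-BB in S100A4-treated cells (vertical axis) against that in cells without S100A4 (horizontal axis), 1 grey point per gene of 12051, with the dashed line marking equal effects. The 14 genes whose effects differed by test are in red and labelled, 12 of them below the line and 2 above it.

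The test of the difference between both PDGF-BB effects called 14 of 12051 genes (0.116%), 2 with a higher (0.0166%) and 12 with a lower (0.0996%) log2 effect when S100A4 was present. Counting these 14, 1169 genes had an unadjusted p under 0.05, and genes that did not pass are not shown to respond alike. The clearest was PTHLH (ENSSSCG00000036893, chromosome 5, 45750968 to 45763421), parathyroid hormone-like hormone, a local relaxant and growth regulator. It was at 7.16, 10.3 and 10.9 CPM in control and at 11.8, 16.3 and 21.6 CPM with PDGF-BB, a rise (0.79 ± 0.09). With S100A4 it was at 26.1, 42.5 and 44.0 CPM, and with both proteins at 19.1, 25.3 and 32.2 CPM, a fall (−0.55 ± 0.07). The direction thus reversed in all 3 replicates, with a difference of −1.35 ± 0.11 (adjusted p = 0.000157).

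LIF rose with and without S100A4, from 21, 36.6 and 10.8 CPM to 199, 501 and 153 CPM without it (3.58 ± 0.15) and by 2.27 ± 0.13 with it, a difference of −1.31 ± 0.20 (adjusted p = 0.03). Its highest levels were still in cells with both proteins. BDKRB2, the bradykinin B2 receptor, went from 2.09, 3.94 and 4.20 CPM in control to 11.3, 22 and 14.4 CPM with PDGF-BB, and from 10.0, 19.0 and 13.8 CPM with S100A4 to 23.7, 40.3 and 30.7 CPM with both (difference −1.08 ± 0.15, adjusted p = 0.03). PMAIP1, the BH3-only protein NOXA, was near 7.50 to 15.7 CPM in the groups without S100A4, and fell from 41.0, 22.1 and 41.7 CPM to 19.6, 15.4 and 21.3 CPM with it (difference −1.0 ± 0.17, adjusted p = 0.0457). In NEDD4L, a ubiquitin ligase, and PXYLP1, a phosphatase that acts in proteoglycan synthesis, PDGF-BB raised the level without S100A4 (0.76 ± 0.08 and 0.95 ± 0.09). The change with S100A4 did not pass in NEDD4L (−0.02 ± 0.08, adjusted p = 0.885) or, narrowly, in PXYLP1 (0.20 ± 0.08, adjusted p = 0.0515). In PXYLP1 this change was positive in all 3 pairs without overlap between the groups, and it was called in 5 of 24 alternative settings.

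The 2 genes with a higher effect were TM4SF1 and IGFBP5. TM4SF1, a membrane protein of the tetraspanin-like family, went from 96.8, 76.7 and 99.2 CPM in control to 76.0, 73.9 and 81.8 CPM with PDGF-BB (−0.23 ± 0.07), and from 75.4, 72.1 and 78.0 CPM with S100A4 to 91.1, 98.8 and 102 CPM with both (0.37 ± 0.07). Among the 14, TM4SF1 and PTHLH were the 2 genes called in both comparisons with opposite signs. IGFBP5, which binds insulin-like growth factors, fell less with S100A4 (−0.16 ± 0.05) than without it (−0.59 ± 0.05). Its log2 ratios with S100A4 were −0.262, 0.019 and −0.22 in the 3 pairs, so replicate 2 did not fall, and the groups overlapped. The call of this fall was lost in 9 of 24 alternative settings. Leaving a replicate number out of all groups turned the count of 14 into 1 (replicate 1), 116 (replicate 2) or 2 (replicate 3). The count was 1 to 32 when a single library was left out. Without the block 0 genes were called (149 at an unadjusted p under 0.05). Of the 23 alternative settings, PTHLH passed in 22 and the other 7 genes described here in 8 to 16.

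**Figure D5:**
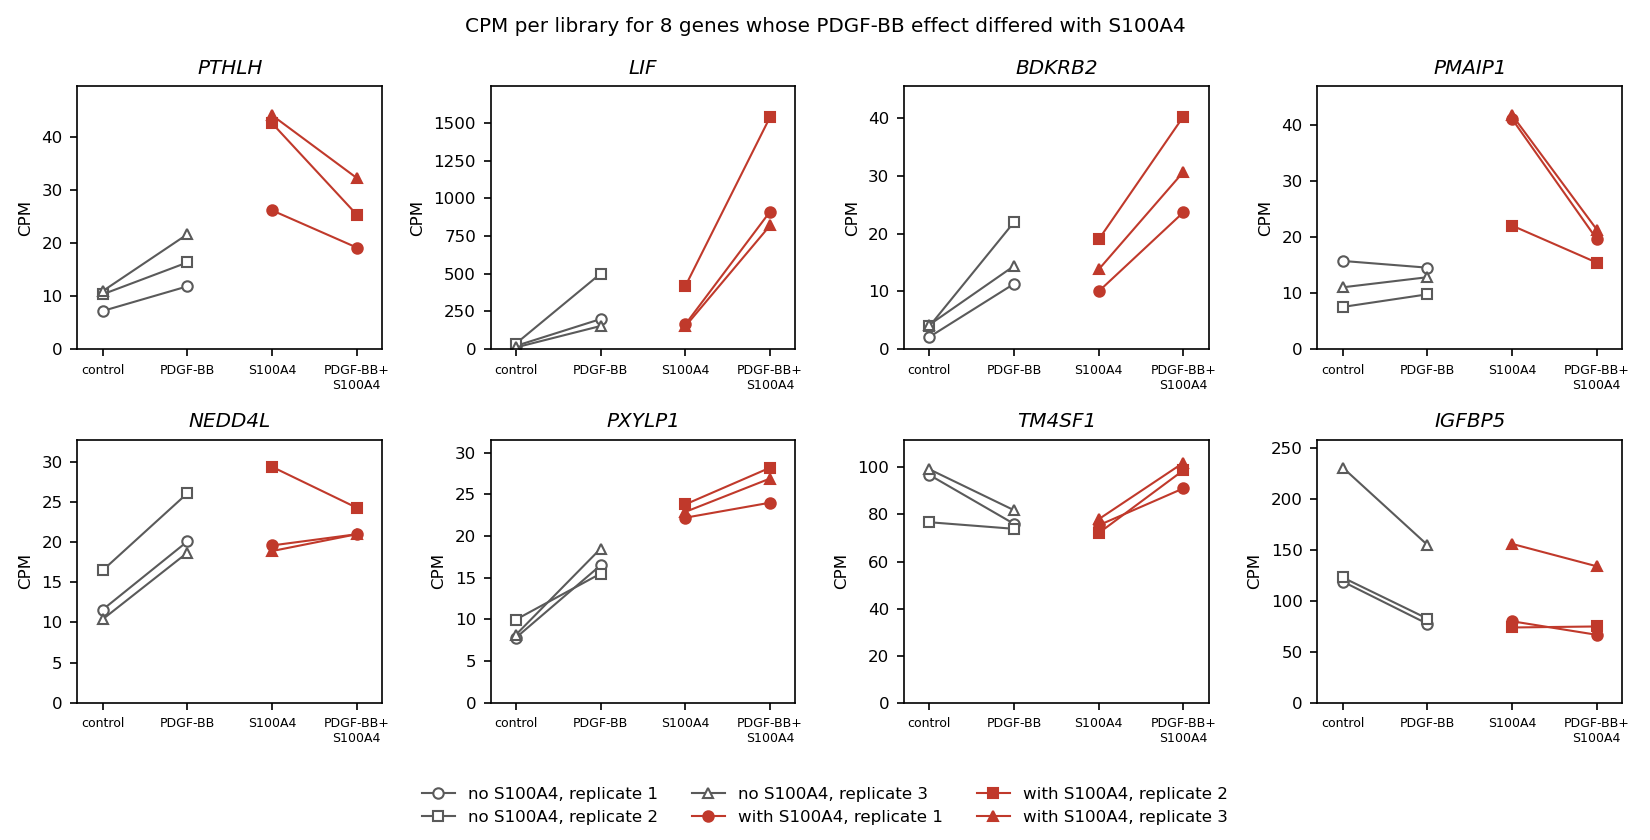
CPM per library of 8 genes whose PDGF-BB effect differed with S100A4, on linear axes from 0; lines join libraries of the same replicate number, open grey points are cells without S100A4 and filled red points cells with it. PTHLH rises from control to PDGF-BB and falls from S100A4 to PDGF-BB+S100A4 in all 3 replicates, and TM4SF1 does the reverse.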

How the data were processed

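RNA sequencing counts of 12 libraries were analysed, in 4 groups of 3. The authors deposited raw read counts for each gene, as whole numbers, made with CASAVA 1.8.2, STAR 2.4 and featureCounts 1.4.6 on the build Sscrofa11.1, per the submitters' processing notes. Neither strand use nor the handling of multi-mapping reads is stated in the labels or notes, so counts of near-identical or overlapping genes are uncertain. Libraries were made by the TruSeq protocol and read as single ends of 100 nt, per the labels' protocols. Symbols came from RefSeq and gene ID tables and matched 10534 of the 12051 genes kept. Places are from RefSeq on Sscrofa11.1, and no sequences were used.

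All 12 libraries were fitted with edgeR 4.0.16 (R 4.3.3; TMM scaling, quasi-likelihood test, two-sided, Benjamini-Hochberg over 12051 genes, threshold 0.05), with the 4 group means and the replicate number as a block. CPM use TMM-scaled library sizes. Within the 6 libraries compared, a library's deviations from its group mean correlated at r = 0.773 to 0.887 in the 3 same-numbered pairs and at −0.679 to 0.129 in the 6 others. Deviations cancel out within a group, so the low values of the 6 others follow in part from the high ones. The pairing rests on the same-numbered correlations and on the numbers in the labels. No library repeated another of its own group, since chi-square per gene was 23 to 166 between replicates of a group. On simulated counts for 11949 genes with 200 changed, this comparison recovered 89.6% of 1.5-fold, 98.5% of 2-fold and 100% of 4-fold changes and called 0.0851% of unchanged genes. The simulation gave every group the same replicate effect and changed far fewer genes than the 5915 called in the real data. Its rates therefore need not hold for those calls.

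The members and the 21 pathway and 10 marker lists were chosen with earlier results of these data known. Of 539 list entries 463 were tested, 25 had too few counts and 51 had no matching symbol. Genes named were the 15 largest changes in each direction (symbol, mean of at least 1 log2 CPM, adjusted p under 0.05, same direction in 3 pairs), the 4 smallest p of each list, up to 6 differing effects in each direction, and 10 fixed genes. A gene taken by this rule is not reported here. Log2 values for components used a prior count of 2. Alternatives included DESeq2 1.42.0 and limma-voom 3.58.1.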

Additional observations from a re-analysis of the deposited data

Results flagged for a closer look

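The PDGF-BB effect with S100A4 differed from the effect without it by the test of the difference itself in 14 genes. The adjusted p was 0.000157 for PTHLH and 0.03 to 0.0457 for the others (edgeR with the replicate block). Each gene had the same direction in all 3 replicates, but the test favours genes whose replicates agree, so nothing is read from that. The difference on the log2 scale was −1.35 for PTHLH, −1.31 for LIF, −1.08 for BDKRB2, −1.0 for PMAIP1, −0.77 for NEDD4L and −0.75 for PXYLP1. It was 0.60 for TM4SF1 and 0.43 for IGFBP5.

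The other 6 genes lay outside the naming rule and were chosen after their values were seen, apart from MAFF, which its list also named. Complement C3 had the largest difference, −3.54 ± 0.55, but 2 to 7 counts per library in control and 5 to 16 with PDGF-BB alone, so its effect without S100A4 (0.95 ± 0.51) is imprecise. With S100A4 it fell from 3.91, 8.84 and 3.44 CPM to 0.261, 1.87 and 0.602 CPM. The hyaluronan-degrading CEMIP differed by −0.73 and MAFF by −0.56, and both rose in both settings. The NF-kB subunit RELB differed by −0.61, rising without S100A4 (0.75 ± 0.08) and not passing with it (0.14 ± 0.07). The EGR co-repressor NAB1 differed by −0.47, with a larger fall when S100A4 was present (−0.82 ± 0.05 against −0.35 ± 0.05). WTAP, a subunit of the RNA methylation complex, differed by −0.41 and was at 93.7, 94.2 and 89.8 CPM with S100A4 and at 70.8, 81.3 and 73.4 CPM with both proteins, while its change without S100A4 did not pass (0.11 ± 0.05).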

How the results depend on the processing

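The replicate block decided most counts. Without it 1888 genes were called in place of 5915, 1853 in place of 6036 with PDGF-BB against control, and 0 in place of 14 for the difference between both effects (149 at an unadjusted p under 0.05). Of 115 named genes 38 were then no longer called, of which 28 were lost under that setting alone. A test against a fold of 1.2 gave 2271, 2345 and 1 genes. The difference between effects rose to 60 genes with DESeq2 and to 85 with no filter on low counts, and the cause was not tested. Leaving out a replicate number or a single library gave 3990 to 5950 genes for the comparison, 4329 to 6257 for PDGF-BB against control and 1 to 116 for the difference. That difference count was 1 without S100A4 or PDGF-BB replicate 1, 2 without S100A4 or control replicate 3, 3 without PDGF-BB or PDGF-BB+S100A4 replicate 3, 4 without PDGF-BB+S100A4 replicate 1, 31 without control replicate 2 and 32 without PDGF-BB+S100A4 replicate 2. Of the named genes 71 kept their status, called or not called, in every alternative fitted, among them genes such as ACTA2 and PDGFRB that never passed. Called changes reversed their sign in 0 cases. Changes that did not pass could switch sign, such as that of NEDD4L (−0.12 to 0.13). List medians moved beyond their spread between pairs in 31 of 504 cases. Against a fold of 1.2 several lists held fewer calls, with (higher and lower) 3 and 5 for PDGF genes, 9 and 6 for NF-kB, 2 and 4 for contractile, 4 and 5 for TGF-beta, 3 and 1 for glycolysis, 4 and 1 for sterol, 3 and 3 for G1/S, 0 and 4 for G2/M, 3 and 1 for stress and 1 and 2 for clock genes. For the comparison itself, leaving out libraries of PDGF-BB alone or control was chosen after seeing the data, as were all alternatives for PDGF-BB against control and for list medians.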

Other observations

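Genes were also grouped by the letters that open their symbols, for the 66 groups with at least 15 tested members. The groups below were chosen after their values were seen, and the background is 25.6% of all genes higher and 23.5% lower. Ribosomal protein genes of the large subunit (RPL) rose in 18 of 20 members and fell in 0, and those of the small subunit (RPS, a group that also holds kinases with this stem) rose in 21 of 31 and fell in 2. Mitochondrial ribosomal protein genes rose in 23 of 38 (MRPL) and 13 of 23 (MRPS) and fell in 0. RNA polymerase subunits (POLR) rose in 21 of 26 and fell in 1, DEAD-box RNA helicases (DDX) rose in 20 of 29 and fell in 1, translation initiation factors (EIF) rose in 26 of 44 and fell in 3, and nuclear pore genes (NUP) rose in 10 of 22 and fell in 0. Counts of ribosomal protein genes are uncertain, since they have many near-identical copies.

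Kinesin genes (KIF) fell in 16 of 32 members and rose in 2, sorting nexins (SNX) fell in 13 of 27 and rose in 4, F-box genes (FBXO) fell in 12 of 25 and rose in 3, and aldehyde dehydrogenases (ALDH) fell in 8 of 15 and rose in 2. The median span of the gene on the genome was 21688 bases for genes that rose, 47938.5 bases for genes that fell and 31237 bases for all tested genes, with a value for 84.4%, 85% and 82.2% of them. Genes more than 4-fold higher had a median span of 12988 bases (89.5% with a value), and their median level in S100A4-treated cells was 2.63 CPM against 23.2 CPM for all genes. The 14 genes more than 4-fold lower had a median span of 27539.5 bases (100% with a value), also below that of all genes, and a median level of 4.73 CPM.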
